A study of Sus scrofa with 3 samples.

Results

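The genes described here code for the carriers that move sodium, chloride, bicarbonate and phosphate across cell membranes. They were taken by name, as every gene of the solute carrier families SLC4, SLC8, SLC9, SLC12, SLC20, SLC24, SLC26 and SLC34 in the deposited table, which gave 49 of its 34570 genes. Of these, 46 are transporters, and 3 carry a family name without being transporters themselves. SLC9A3R1 and SLC9A3R2 code for the scaffold proteins NHERF1 and NHERF2, and SLC4A1AP codes for kanadaptin, a protein named for its binding to the anion exchanger of SLC4A1. The rule itself uses names and no measured values.

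The study sequenced kidney RNA of Wuzhishan pigs, a miniature breed from China, that were 6 to 7 months old. The CMT group held castrated males given testosterone, the CM group castrated males without it, and the IM group intact males. All 3 groups ate a diet high in fat and cholesterol, so no group on an ordinary diet was compared. By the extraction protocol, RNA of the 3 pigs of each group was pooled into 1 library. The design text names triplicates instead, and this was not settled. The counts have 1 column per group, which leaves no replicate of any group, no estimate of the spread between pigs and no p-value. The labels give neither the testosterone dose nor the time since castration.

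The kidney reclaims most of the filtered salt, bicarbonate and phosphate, and it does so with different carriers in each segment of the tubule. In the proximal tubule, sodium-hydrogen exchange and sodium-phosphate cotransport take up solutes at the brush border, and sodium-bicarbonate cotransport returns bicarbonate to the blood. The thick ascending limb takes up sodium, potassium and chloride together. In the collecting duct, type A intercalated cells secrete acid and type B intercalated cells secrete bicarbonate in exchange for chloride.

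The libraries held 13601475 counts in CMT, 18503537 in CM and 16459771 in IM. Levels are given as counts per 1000000 counts (CPM), scaled for library size and composition. They are compared between libraries and not between genes, because gene lengths were not used. Ribosomal RNA genes took 1.73% to 2.14% of the counts, and mitochondrially encoded genes took 8.43% to 8.83%. A gene was compared when its mean was at least 1 CPM, which 15472 genes met. A fold is a ratio of scaled counts, and the interval after it is an exact 95% interval that covers counting error only. A call of higher or lower needed that interval to lie wholly beyond 2-fold. Proximal tubule markers, as a check of the tissue, summed to 21617 CPM in CMT, 20929 in CM and 21175 in IM, and adrenal cortex markers to at most 1.87 CPM.

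Of the 49 genes, 35 were compared, 7 had counts but a mean under 1 CPM and 7 had 0 counts in all 3 libraries. The compared ones were all 8 of SLC12, both of SLC20, 9 of 10 of SLC4, 8 of 10 of SLC9, 5 of 9 of SLC26, 2 of 3 of SLC34, 1 of 3 of SLC8 and 0 of 4 of SLC24. The 49 genes together took 0.419% of the counts in CMT, 0.420% in CM and 0.438% in IM. The 46 transporters summed to 3337 CPM in CMT, 3344 in CM and 3394 in IM, so their summed share of the RNA was nearly the same in all libraries. SLC34A1 alone gave 1505 CPM in CMT, 1559 in CM and 1445 in IM. Between CM and IM, the SLC4 sum was lower in CM, at 764 against 944 CPM, and the SLC34 sum higher, at 1621 against 1512.

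**Figure D1:**
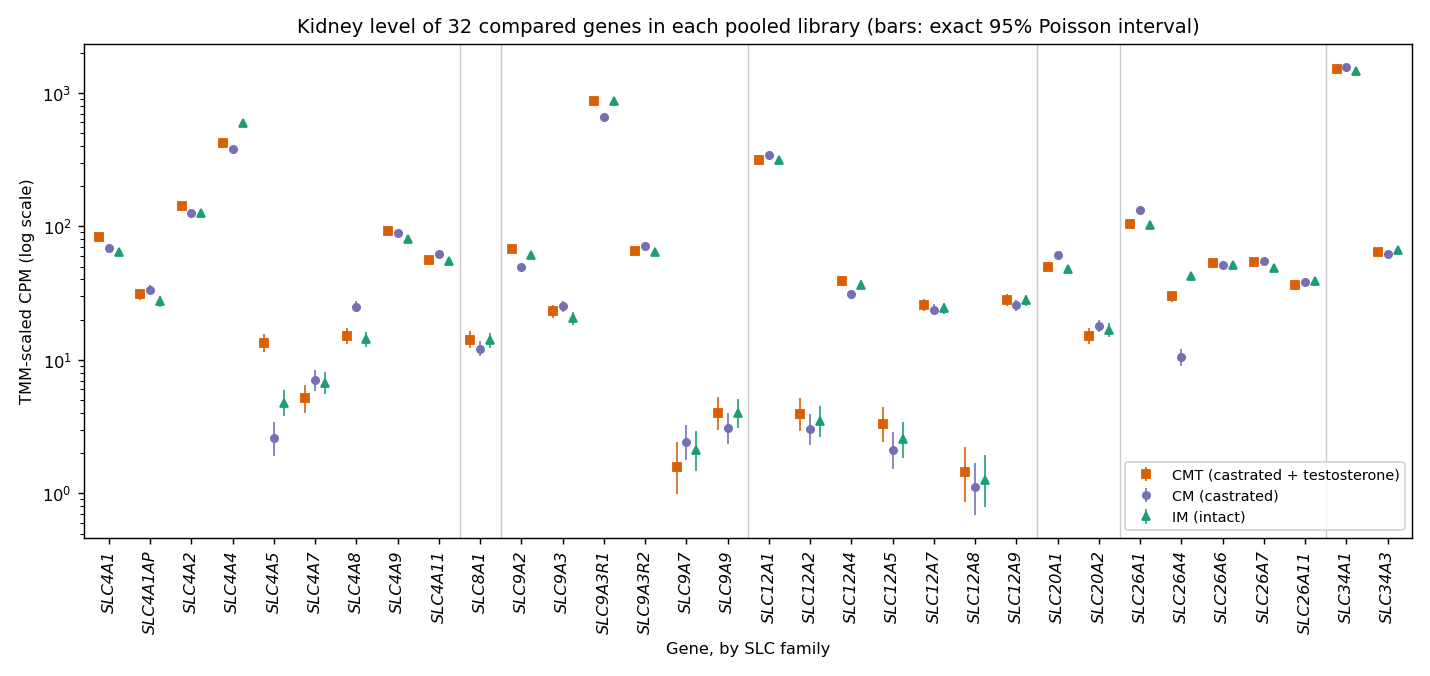
Level of 32 of the 35 compared genes in the CMT, CM and IM libraries, as scaled CPM on a log axis, 1 point per library with no replicate and bars for the exact 95% Poisson interval. The points of most genes lie at nearly one height, while SLC26A4 at 10.4 CPM in CM and SLC4A5 at 13.4 CPM in CMT stand away from the other libraries.

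Only 2 of the 35 genes passed the 2-fold rule in any comparison. They were SLC26A4, the chloride-bicarbonate exchanger pendrin, and SLC4A5, the electrogenic sodium-bicarbonate cotransporter NBCe2. In CM against IM, 0 of 35 were higher, where 1.20% of all compared genes were, and 1 of 35 (2.86%) was lower, where 1.52% of all were. In CMT against CM, 2 of 35 (5.71%) were higher, against 1.84% of all, and 0 were lower, against 1.11% of all. In CMT against IM, 1 of 35 (2.86%) was higher, against 0.905% of all, and 0 were lower, against 0.595% of all. At most 2 genes make up each of these shares, so none is read as a result about the families as a whole. The comparisons share libraries, CM being in both of the first 2, so a low or high count in 1 library enters more than 1 of them.

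Over all 35 compared genes, the 2 called ones included, most folds were small. In CM against IM the median log2 fold was 0.02, against -0.01 for all compared genes, and 31 of 35 (88.6%) lay within 1.5-fold, against 83.4% of all. In CMT against CM the median log2 fold was 0.03, against -0.004 for all, and 31 of 35 (88.6%) lay within 1.5-fold, against 82.9% of all. In CMT against IM the median log2 fold was 0.05, against -0.01 for all, and 34 of 35 (97.1%) lay within 1.5-fold, against 86.9% of all. These medians are within 0.06 of those of all genes. In CMT against IM, however, 27 of 35 (77.1%) had a log2 fold above 0 and 8 below, against 48.2% of all above. That share was not tested. The rule leaves any fold under 2 uncalled at any depth, and counting error adds to that limit. The smallest rise that it could call for a member had a median of 2.19 to 2.22 over the 3 comparisons and reached 3.40 for SLC12A8. The smallest fall that it could call was not computed, so these values do not cover calls of lower.

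**Figure D2:**
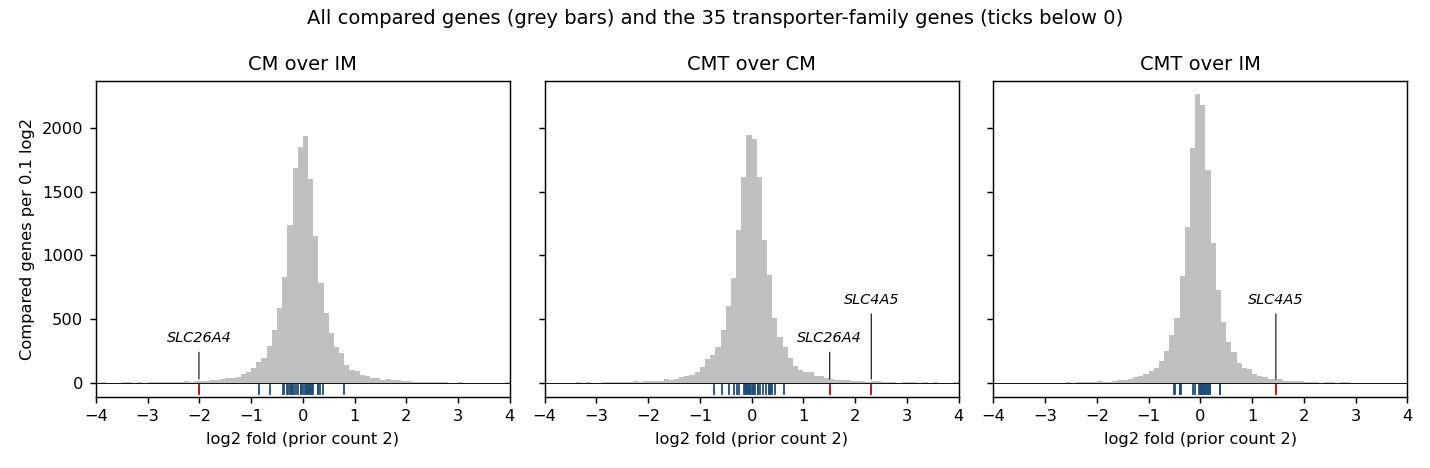
Number of compared genes per 0.1 of log2 fold (grey bars, 15472 genes) in each comparison, with the 35 transporter-family genes as ticks below the axis and the called ones in red. The ticks crowd around 0, apart from SLC26A4 at -2.01 in CM over IM and 1.51 in CMT over CM, and SLC4A5 at 2.31 in CMT over CM and 1.46 in CMT over IM.

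A second reading, chosen after the data were seen, asked whether the interval lay wholly on one side of no change. In CM against IM, 11 of 35 (31.4%) lay above and 7 below, against 21.2% and 23.2% of all compared genes. In CMT against CM, 9 (25.7%) lay above and 7 below, against 21.3% and 20.4% of all. In CMT against IM, 6 (17.1%) lay above and 3 (8.57%) below, against 17.8% and 17.5% of all. The widest gaps to the background were 31.4% against 21.2% and 8.57% against 17.5%. Such small differences between pools have no replicate check, and they are given below as values.

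SLC26A4 codes for pendrin, the apical exchanger by which type B and related intercalated cells take up chloride and secrete bicarbonate. It gave 396 counts in CMT, 197 in CM and 700 in IM, which is 29.9 CPM in CMT, 10.4 in CM and 42.3 in IM. The CM library was the lowest and the IM library the highest. Its level was 4.06-fold (3.46 to 4.78) lower in CM than in IM, and 0.750% of all compared genes had a log2 fold as low or lower. It was higher in CMT than in CM by 2.87-fold (2.41 to 3.42), placing it in the top 1.55% of compared genes. In CMT against IM it was not called, at a fold of 0.708 (0.624 to 0.802), so its level with testosterone lay between those of the other pools. In bulk tissue, fewer cells of a type and less RNA per cell cannot be told apart.

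Other exchangers of intercalated cells were set beside pendrin. SLC4A9, the exchanger AE4 known from type B cells of the rabbit and mouse, stood at 91.7 CPM in CMT, 89.8 in CM and 79.9 in IM. Its folds were 1.12 (1.04 to 1.21) in CM over IM and 1.02 (0.948 to 1.10) in CMT over CM, so it did not share the low value of pendrin in CM. SLC4A1, the anion exchanger AE1 of red blood cells and, in a shorter form, of type A cells, gave 83.5 CPM in CMT, 68.7 in CM and 64.0 in IM. The CMT library was the highest, at 1.30-fold (1.20 to 1.42) over IM and 1.22-fold (1.12 to 1.32) over CM. Red blood cell markers also had their highest sum in CMT, with 98.9 CPM in CMT, 72.8 in CM and 57.8 in IM over 7 genes. Only HBB and ALAS2 of those 7 were compared, EPB42 had 0 counts in all libraries, and the part of blood in the SLC4A1 values was not tested. SLC26A7, an anion transporter of type A cells in rodents, gave 53.9 CPM in CMT, 54.7 in CM and 49.0 in IM. It was nearly level across the pools, with folds from 0.985 to 1.12.

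Ratios of genes within a library do not depend on how libraries are scaled. The SLC26A4 count was 32.7% of the SLC4A9 count in CMT, 11.6% in CM and 52.9% in IM. Against SLC4A1 it was 35.8% in CMT, 15.2% in CM and 66.0% in IM. Against FOXI1, the transcription factor that intercalated cells of the mouse need, it was 181% in CMT, 75.5% in CM and 277% in IM. By each of these ratios CM was lowest and IM highest, and their exact intervals did not overlap between libraries. The FOXI1 ratio, for example, was 1.81 (1.53 to 2.14) in CMT, 0.755 (0.624 to 0.912) in CM and 2.77 (2.39 to 3.21) in IM. Against INSRR, a further marker given below, the ratio was 1.64 (1.39 to 1.93) in CMT and 1.61 (1.43 to 1.82) in IM. It was 0.794 (0.656 to 0.962) in CM, so CM was lowest there too, but the CMT and IM intervals overlapped.

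Of 13 intercalated-cell markers compared outside the 8 families, 0 were called in any comparison. At most 1.84% of all compared genes were called in either direction of a comparison, so 0 of 13 is near that share. The median log2 fold of the 13 markers was -0.08 in CM over IM, 0.18 in CMT over CM and 0.10 in CMT over IM. They summed to 1287 CPM in CMT, 1557 in CM and 1318 in IM, and 1 gene alone differed by more than these sums did. That gene is ATP6V1B1, a proton pump subunit of intercalated cells, with 413 CPM in CMT, 727 in CM and 433 in IM. It was highest in CM, the library in which pendrin was lowest, with a fold of 1.68 (1.63 to 1.73) in CM over IM. INSRR is a receptor tyrosine kinase that senses alkaline pH and sits on type B cells in mice. It gave 242 counts in CMT, 248 in CM and 435 in IM, or 18.3 CPM in CMT, 13.1 in CM and 26.3 in IM. Its fold in CM over IM was 0.499 (0.426 to 0.585), the lowest among the 13 markers and not called. The other INSRR folds were 1.39 (1.16 to 1.67) in CMT over CM and 0.696 (0.592 to 0.816) in CMT over IM. As for pendrin, CM was thus lowest and IM highest. FOXI1 gave 219 counts in CMT, 261 in CM and 253 in IM, a fold of 0.904 (0.757 to 1.08) in CM over IM.

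**Figure D3:**
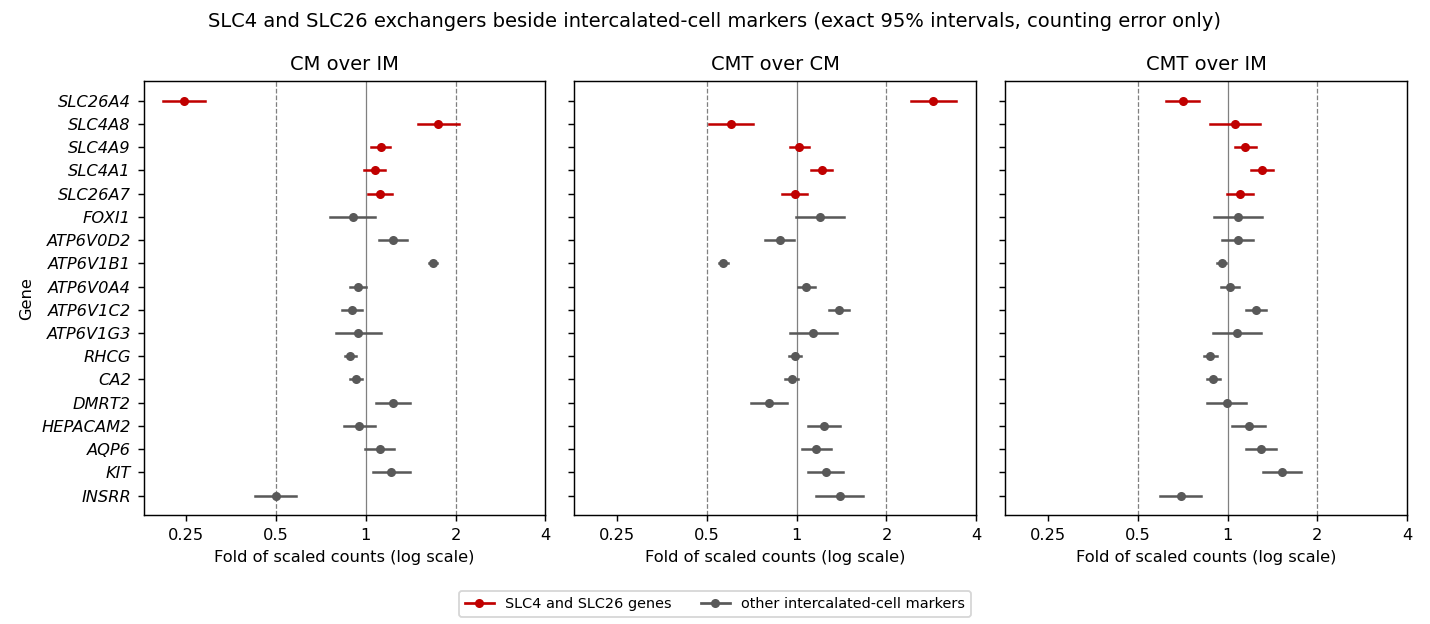
Fold of scaled counts on a log axis with exact 95% intervals in CM over IM, CMT over CM and CMT over IM, for 5 SLC4 and SLC26 genes (red) and the 13 other intercalated-cell markers (grey), with dashed lines at 2-fold. SLC26A4 lies at 0.247 in CM over IM and 2.87 in CMT over CM, outside the dashed lines, and most of the markers lie near 1.

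SLC4A8 codes for NDCBE, a sodium-driven chloride-bicarbonate exchanger that works beside pendrin in salt uptake by type B cells of the mouse. It gave 200 counts in CMT, 473 in CM and 237 in IM, or 15.1 CPM in CMT, 25.02 in CM and 14.3 in IM. CM was the highest library, with CMT and IM close together. The fold was 1.75 (1.49 to 2.05) in CM over IM and 0.604 (0.509 to 0.714) in CMT over CM, neither of which passed the 2-fold rule. SLC4A8 had the highest log2 fold of the members in the first of these, 0.80, and the lowest in the second, -0.72. Its count was 50.5% of the SLC26A4 count in CMT, 240% in CM and 33.9% in IM. That ratio of the 2 genes was 7.09 times as high in CM as in IM.

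SLC4A5, or NBCe2, carries sodium and bicarbonate together with net charge, and is known from the choroid plexus and, at lower levels, from kidney tubules. It gave 177 counts in CMT, 49 in CM and 79 in IM, or 13.4 CPM in CMT, 2.59 in CM and 4.77 in IM. CMT was well above both other libraries. SLC4A5 was higher in CMT than in CM by 5.16-fold (3.74 to 7.23), in the top 0.698% of compared genes. Against IM it was higher in CMT by 2.80-fold (2.14 to 3.70), and with a 99% interval this call was lost. The CM over IM fold was 0.543 (0.372 to 0.786) and was not called. With 49 to 177 counts, these intervals are among the wider ones.

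SLC4A4, or NBCe1, is the main basolateral exit for bicarbonate in the proximal tubule, and its loss causes proximal renal tubular acidosis in people. It gave 5528 counts in CMT, 7232 in CM and 9839 in IM, or 418 CPM in CMT, 383 in CM and 594 in IM. IM was the highest, with the other pools near each other. Its fold was 0.644 (0.624 to 0.664) in CM over IM and 0.703 (0.680 to 0.727) in CMT over IM, the lowest fold of all members in CMT over IM. CMT over CM gave 1.09 (1.05 to 1.13). None of these passed 2-fold. Between the 2 electrogenic cotransporters, the SLC4A5 count was 3.20% of the SLC4A4 count in CMT, 0.678% in CM and 0.803% in IM. Against the phosphate cotransporter SLC34A1 of the same segment, the SLC4A4 count was 27.8% in CMT, 24.5% in CM and 41.1% in IM. The proximal tubule markers SLC5A2, SLC6A19 and GATM were also highest in IM, with folds of 0.669, 0.741 and 0.504 in CM over IM. Of 18 such markers, 11 had a log2 fold above 0 in CM over IM.

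The other SLC4 genes were called in no comparison. SLC4A2, the widespread anion exchanger AE2, gave 142 CPM in CMT, 127 in CM and 125 in IM, with a fold of 1.14 (1.07 to 1.21) in CMT over IM. SLC4A7, the electroneutral cotransporter NBCn1, gave 68 counts in CMT, 133 in CM and 112 in IM. CMT was lowest, at a fold of 0.730 (0.537 to 0.985) over CM. SLC4A11, mutated in a corneal endothelial dystrophy, had folds between 0.899 and 1.13. The 9 SLC4 transporters summed to 824 CPM in CMT, 764 in CM and 944 in IM, and SLC4A4 made up most of that sum.

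**Figure D4:**
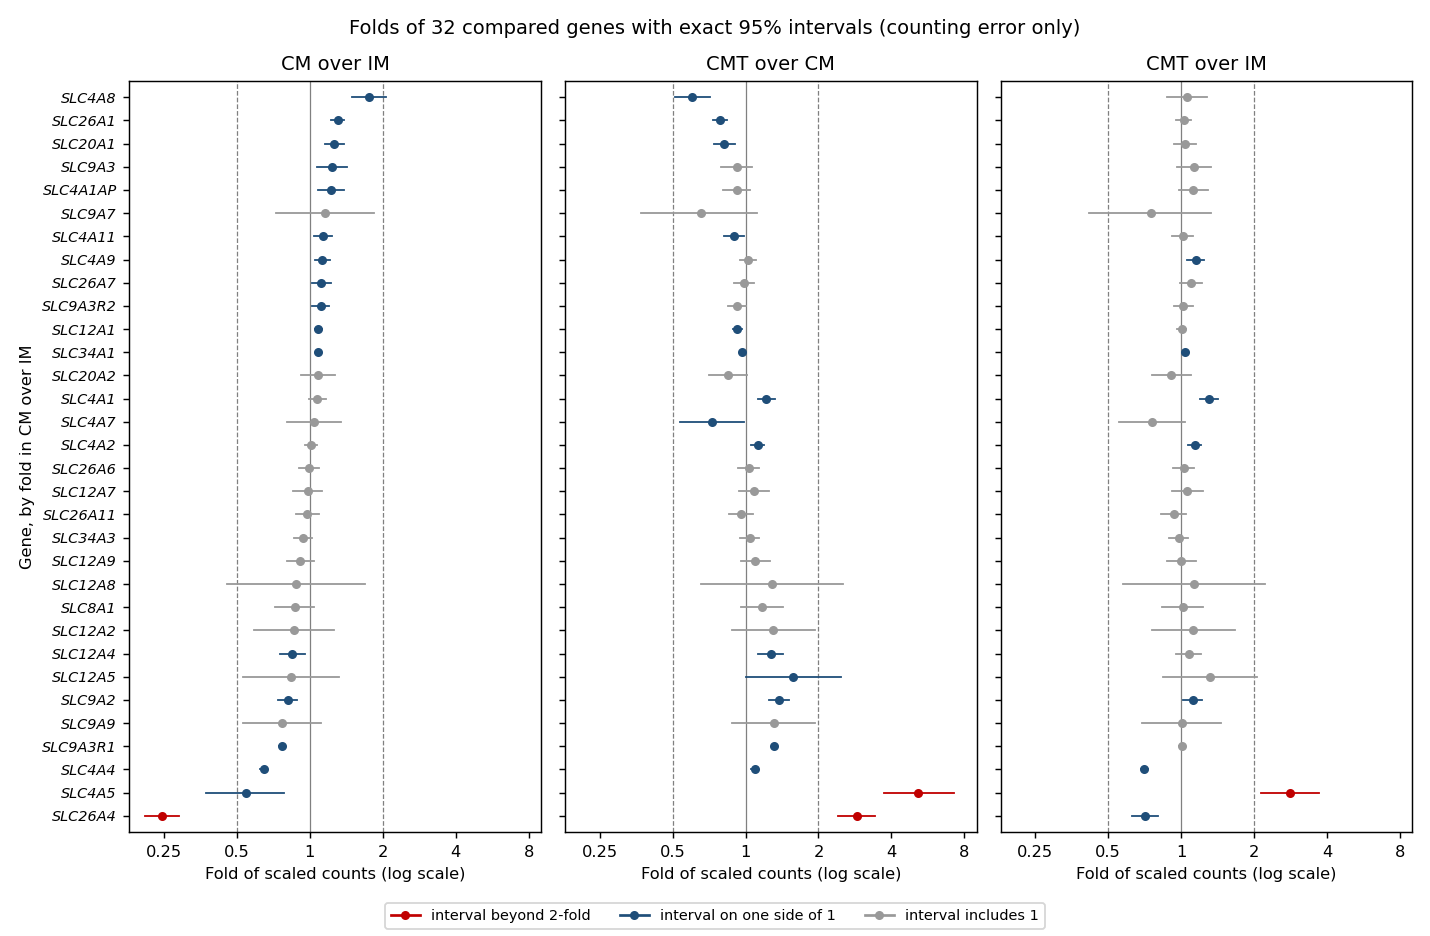
Fold of scaled counts on a log axis with exact 95% intervals for 32 of the 35 compared genes in CM over IM, CMT over CM and CMT over IM, ordered by the first. Red marks intervals wholly beyond 2-fold (dashed lines), which are SLC26A4 and SLC4A5, blue marks other intervals that exclude 1, and grey marks those that include it.

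Sodium-dependent phosphate uptake at the brush border is carried mainly by SLC34A1 (NaPi-IIa) and SLC34A3 (NaPi-IIc). SLC34A1 gave 19917 counts in CMT, 29466 in CM and 23931 in IM, or 1505 CPM in CMT, 1559 in CM and 1445 in IM. The libraries differed by at most 1.08-fold (1.06 to 1.10), in CM over IM. SLC34A3 gave 64.7 CPM in CMT, 62.1 in CM and 66.2 in IM, and each of its intervals included 1. Its count was 4.30% of the SLC34A1 count in CMT, 3.98% in CM and 4.58% in IM. SLC34A2, the phosphate cotransporter of intestine and lung, was too low to compare, at 14 counts in CMT, 6 in CM and 5 in IM.

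The SLC20 genes code for phosphate transporters found in most cells. SLC20A1 (PiT-1) gave 49.7 CPM in CMT, 60.7 in CM and 48.1 in IM, and CM was the highest. Its fold was 1.26 (1.15 to 1.38) in CM over IM and 0.819 (0.743 to 0.902) in CMT over CM. SLC20A2 (PiT-2) gave 15.2 CPM in CMT, 17.9 in CM and 16.7 in IM, with each interval including 1.

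Of 16 phosphate regulation genes compared, 0 were called in any comparison. Their median log2 fold was -0.01 in CM over IM, 0.03 in CMT over CM and 0.04 in CMT over IM. At most 1.84% of all compared genes were called in either direction of a comparison, so 0 of 16 is near that share. PTH1R, the receptor for parathyroid hormone, which lowers phosphate uptake, gave 570 CPM in CMT, 653 in CM and 535 in IM. KL, the co-receptor for the phosphate hormone FGF23, gave 135 CPM in CMT, 137 in CM and 139 in IM. PDZK1, a scaffold that binds SLC34A1, gave 1042 CPM in CMT, 970 in CM and 1072 in IM. CYP27B1, the enzyme that activates vitamin D, was the closest to a call, with 51.5 CPM in CMT, 25.5 in CM and 26.3 in IM. Its fold of 2.02 (1.80 to 2.28) in CMT over CM reached below 2 at the lower bound.

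SLC9A3, or NHE3, exchanges sodium for hydrogen at the brush border, and NHERF1 and NHERF2 tie it to the cytoskeleton. SLC9A3 gave 23.1 CPM in CMT, 25.2 in CM and 20.5 in IM, with CM highest at 1.23-fold (1.07 to 1.42) over IM. SLC9A3R1 gave 11546 counts in CMT, 12560 in CM and 14357 in IM, or 872 CPM in CMT, 664 in CM and 867 in IM. Here CM was lowest, with a fold of 0.766 (0.748 to 0.785) in CM over IM and 1.31 (1.28 to 1.35) in CMT over CM. For SLC9A3 the fold in CMT over CM was 0.918 (0.793 to 1.06), an interval that includes 1. In CM over IM the exchanger and NHERF1 thus lay on opposite sides of 1. The SLC9A3 count was 2.65% of the SLC9A3R1 count in CMT, 3.79% in CM and 2.36% in IM. SLC9A3R2 gave 65.5 CPM in CMT, 71.1 in CM and 64.1 in IM, and at 1.11-fold (1.02 to 1.20) in CM over IM it lay on the same side as SLC9A3.

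Other sodium-hydrogen exchangers were called in no comparison. SLC9A2, or NHE2, an apical exchanger, gave 67.8 CPM in CMT, 49.3 in CM and 60.8 in IM. CM was lowest, with a fold of 0.810 (0.740 to 0.886) over IM, while CMT over CM gave 1.38 (1.25 to 1.51). SLC9A7 and SLC9A9 are exchangers of intracellular compartments. SLC9A7 gave 21 counts in CMT, 46 in CM and 35 in IM, and SLC9A9 gave 53 counts in CMT, 58 in CM and 66 in IM. All intervals of both genes included 1.

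SLC12A1, or NKCC2, takes up sodium, potassium and chloride in the thick ascending limb and is the target of the diuretic furosemide. It gave 4169 counts in CMT, 6430 in CM and 5195 in IM, or 315 CPM in CMT, 340 in CM and 314 in IM. CM was highest, by 1.08-fold (1.05 to 1.12) over IM. SLC12A2, or NKCC1, its widespread relative, gave 3.93 CPM in CMT, 3.02 in CM and 3.50 in IM, and each interval included 1. The gene for the thiazide-sensitive cotransporter, SLC12A3, was not analysed here.

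The potassium-chloride cotransporters of SLC12 let chloride leave cells. SLC12A7 (KCC4) gave 25.8 CPM in CMT, 23.8 in CM and 24.3 in IM, all within 1.09-fold. SLC12A4 (KCC1) gave 39.3 CPM in CMT, 30.9 in CM and 36.5 in IM, with CM lowest at 0.847 (0.755 to 0.950) of IM. SLC12A5 (KCC2), best known from neurons, gave only 44 counts in CMT, 40 in CM and 42 in IM. Its fold in CMT over CM, 1.57, had an interval whose lower end touched 1, and that side was lost when libraries were scaled by total counts or on nuclear mRNA alone. SLC12A8, with 19 counts in CMT, 21 in CM and 21 in IM, had the widest intervals of the compared genes.

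Of 17 compared regulators of sodium chloride cotransport, such as WNK1, STK39 and NR3C2, 0 were called in any comparison. Their median log2 fold was -0.01 in CM over IM, -0.08 in CMT over CM and -0.03 in CMT over IM. Of 16 sodium and chloride partners, 0 were called, with medians of -0.14 in CM over IM, 0.03 in CMT over CM and -0.07 in CMT over IM. Among these, KCNJ16, a potassium channel subunit that pairs with KCNJ10, gave 381 CPM in CMT, 263 in CM and 488 in IM, and CM was lowest. Of 16 acid-base partners, 0 were called, with medians of -0.07 in CM over IM, -0.04 in CMT over CM and -0.08 in CMT over IM. These counts of 0 are near the share of all compared genes called, at most 1.84% in either direction of a comparison. CA13, a cytosolic carbonic anhydrase, gave 176 counts in CMT, 145 in CM and 234 in IM, and its fold of 0.543 (0.438 to 0.671) in CM over IM was not a call.

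In the SLC26 family, 4 of the 5 compared genes were called in no comparison. SLC26A1, a basolateral exchanger of sulfate and oxalate in the proximal tubule, gave 105 CPM in CMT, 133 in CM and 102 in IM. CM was highest, with a fold of 1.30 (1.23 to 1.39) in CM over IM and 0.787 (0.737 to 0.841) in CMT over CM. In human, SLC26A1 overlaps the gene IDUA, and since the strand setting of the counting was not given, how their reads were divided is unknown. SLC26A6, an apical exchanger of chloride with oxalate and formate, gave 52.8 CPM in CMT, 51.2 in CM and 51.6 in IM, level in all 3. SLC26A11, an anion transporter, was within 1.07-fold across libraries.

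The sodium-calcium exchangers of SLC8 and SLC24 were mostly near or at 0. SLC8A1, or NCX1, which moves calcium out of distal tubule cells, gave 14.2 CPM in CMT, 12.1 in CM and 14.01 in IM, and each interval included 1. SLC8A3 gave 2 counts in CMT, 13 in CM and 1 in IM, and SLC8A2 gave 3 counts in CMT, 0 in CM and 2 in IM. SLC24A3 gave 11 counts in CMT, 11 in CM and 12 in IM, and SLC24A4 at most 4. These genes, with SLC26A8, SLC34A2 and SLC9A4, were too low to compare. The genes with 0 counts in every library were SLC24A2, SLC24A5, SLC26A3, SLC26A5, SLC26A10, SLC4A10 and SLC9A10. Up to 3 counts are allowed by such a 0, or 0.227 CPM in CMT, 0.159 in CM and 0.181 in IM. A numbered entry paired with the symbol SLC26A10, outside the name rule, gave 1 count in CMT, 5 in CM and 5 in IM.

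Some markers of kidney cell types were called beside these transporters. GGT1, a brush border enzyme of the proximal tubule, gave 1293 CPM in CMT, 552 in CM and 1140 in IM, and was called lower in CM than in IM and higher in CMT than in CM. It was the only one called of 18 proximal tubule markers. TMEM207, of the loop of Henle list, gave 77 counts in CMT, 53 in CM and 151 in IM, and was called lower in CM than in IM, as the only one of 9 compared. None of the distal convoluted tubule, principal cell, podocyte, endothelium and stroma markers was called in any comparison. Of all compared genes, at most 1.84% were called in either direction of a comparison.

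Markers of other cell types differed between the pools without a common direction. Over 11 immune cell markers, of which 9 were compared and 0 were at 0 counts throughout, the sum was 87.8 CPM in CMT, 177 in CM and 69.5 in IM, highest in CM as SLC4A8 was. Most of that difference lay in IGJ, the joining chain of secreted antibodies, at 21.8 CPM in CMT, 102 in CM and 16.1 in IM. IGJ was called higher in CM than in IM, and IGJ and CD79A, a B cell gene, were called lower in CMT than in CM. In CM over IM the fold of CD3E was 0.886 and that of LYZ 0.803, and CD163 was below 1 as well.

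Over 10 hepatocyte markers, of which 7 were compared and 0 were at 0 counts throughout, the sum was 675 CPM in CMT, 344 in CM and 789 in IM, lowest in CM as SLC26A4 was. TF, the transferrin gene, carried most of it, with 547 CPM in CMT, 285 in CM and 626 in IM. ALB, AFP and TF were called lower in CM than in IM, whereas TTR was called higher, with 58.6 CPM in CMT, 25.9 in CM and 8.03 in IM. AMBP, at 1.51, and FGB, at 1.41, also lay above 1 in CM over IM, and FGG below it at 0.418, none called. FGA, APOA2 and SERPINA1 had at most 17 counts in any library and were not compared. ALB, AFP and TTR were called higher in CMT than in CM. In CMT against IM, TTR was called higher and ALB lower. Whether any such cells had a part in the transporter values was not tested.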

How the data were processed

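Kidney RNA of 9 pigs was measured in 3 libraries, each a pool of 3 pigs, prepared per the labels' protocols from TRIzol extracts with an Ion Torrent kit. The design text names an Illumina sequencer and triplicates, and this was not settled. The values deposited by the authors are raw counts per gene, whole numbers with different totals per library. FastQC is named in the submitters' processing notes. What aligner, counter, strand setting, genome build or annotation was used is not given in the sources used here. Neither coordinates nor sequences are printed.

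Members were rows whose symbol starts with one of the 8 family names. Members, gene lists and alternatives were chosen with earlier results of these data known. Libraries were scaled with TMM factors of 0.973 (CMT), 1.02 (CM) and 1.01 (IM) from edgeR 4.0.16 in R 4.3.3; no edgeR test was possible with 1 library per group. Folds and Clopper-Pearson intervals of the share of counts were computed in Python 3.11.15 with SciPy 1.17.1; log2 folds used a prior count of 2. Sequenced reads are not independent molecules, so intervals and floors cover counting error only. The procedure was tested on simulated counts with counting error only. That is the error the intervals assume, so spread between pigs was not tested. Named genes were the called members, a set list of members, and the 6 others with the largest absolute log2 fold; of the pathway lists, called genes were to be named and 0 were called, so the list genes named here were chosen after their values were seen. Alternatives were other scalings (total counts, DESeq2 1.42.0 size factors, upper quartile, nuclear mRNA), other filters, intervals and thresholds, and thinning. Some compared members are counted in the totals but not reported by name here.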

Additional observations from a re-analysis of the deposited data

How the results depend on the processing

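No paired analysis was possible because each group has 1 library, and for the same reason no replicate could be left out. Over 10 alternatives, SLC26A4 was 3.95- to 4.06-fold lower in CM than in IM and higher in CMT than in CM by 2.74- to 2.89-fold, and it stayed called in each. SLC4A5 was higher in CMT than in CM by 4.78- to 5.19-fold, called in each. In CMT against IM it was higher by 2.71- to 2.83-fold, and with a 99% interval the number called there was 0. The looser thresholds and changed filters left the folds and intervals of both genes as they were, so those settings could not remove a call. Under a 1.5-fold threshold, 2 members were called lower in CM than in IM, SLC4A4 being the addition. Requiring only that the interval lie on one side of no change, a rule added after seeing the data, gave 11 higher and 7 lower in CM against IM, 9 and 7 in CMT against CM, and 6 and 3 in CMT against IM. With scaling by total counts that rule gave 12 higher and 7 lower in CM against IM, 8 and 10 in CMT against CM, and 4 and 4 in CMT against IM. There it lost SLC12A5 in CMT against CM and SLC34A1 and SLC9A2 in CMT against IM. It gained SLC4A1 in CM against IM, SLC20A2, SLC4A1AP and SLC9A3R2 in CMT against CM, and SLC9A3R1 in CMT against IM. No interval on one side moved wholly to the other, but 15 of the 105 fold estimates crossed 1. The median log2 fold ran from 0.003 to 0.06 in CM against IM, from -0.04 to 0.07 in CMT against CM and from -0.001 to 0.07 in CMT against IM, so its sign is not settled in the last 2. Leaving out the 3 members that are not transporters, or adding the numbered genes whose symbol was not otherwise present, moved no 2-fold count. None of those genes was called, so this outcome was fixed in advance. Both of these alternatives were added after seeing the data. The threshold, and not depth, left folds under 2 uncalled, and the pools give no spread between pigs.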

Other observations

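Some genes of the table carry a numbered identifier in place of a symbol, and RefSeq's gene list for the Sscrofa11.1 assembly pairs some of these with a symbol of the same families. The 4 symbols not otherwise in the table were SLC4A3, SLC9A8, SLC26A2 and SLC24A1. SLC4A3, typed as miscRNA, gave 223 counts in CMT, 373 in CM and 269 in IM. SLC9A8, a sodium-hydrogen exchanger of the Golgi, gave 19 counts in CMT, 33 in CM and 15 in IM, with a fold of 1.93 (1.02 to 3.82) in CM over IM. SLC26A2, a sulfate transporter, gave 22 counts in CMT, 29 in CM and 19 in IM. These 3 were called in no comparison, and SLC24A1, with 12 counts in CMT, 18 in CM and 18 in IM, was too low to compare.

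SLC8B1, the mitochondrial sodium-calcium exchanger, lies outside the families by its symbol and gave 127 counts in CMT, 161 in CM and 213 in IM, with IM highest. SLC9C2, a relative of the sperm sodium-hydrogen exchanger, gave 112 counts in CMT, 123 in CM and 100 in IM. Neither had an interval wholly beyond 2-fold in any comparison.

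Among the genes too low to compare, SLC8A3 gave 13 counts in CM and 1 in IM, a ratio of 11.4 (1.71 to 484). SLC34A2 gave 14 counts in CMT and 6 in CM, a ratio of 3.33 (1.20 to 10.6).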
